A study of Mus musculus with 8 samples.

Results

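In each of 3 groups of sorted mouse sarcoma cells, library 2 was set against library 1 of the same group. The libraries were titled sgMif, shMif and shSCR, each with the numbers 1 and 2, so 6 of the 8 libraries of the series entered the comparison. They were divided by a value of these data, the summed reads of olfactory receptor genes, which lay under 1000 CPM (counts-per-million units) in library 2 and over it in library 1. Differences between library 2 and library 1 are therefore given as a description of that division, with no test read from them. Both sgSCR libraries lay over 1000 CPM. Their values were not used in the fit and are given beside the others as 1 further pair, for which no test was run.

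All 8 libraries came from mouse sarcoma cells labelled p53-/- Ccne1+ on the C57BL/6 strain, made from mesenchymal stem cells that lack p53 and overexpress Ccne1, the gene of cyclin E1. The groups carried, in addition, Cas9 with a control guide RNA (sgSCR, labelled Mif-WT), Cas9 with a guide against Mif (sgMif, labelled Mif-KO), a control short hairpin RNA (shSCR, labelled Mif-WT) or a hairpin against Mif (shMif, labelled Mif-KD). The series design text gives Cas9 for the hairpin groups too, while the growth protocol names it for the guide groups alone. The cells were implanted subcutaneously in mice, on scaffolds of polyurethane, and tumour cells were sorted on a fluorescent marker before bulk RNA sequencing. Age, time and the number of mice behind a library are not given in the labels, nor whether the 2 libraries of a group are separate tumours, so the spread between them may be technical.

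The targeted gene, Mif, which encodes macrophage migration inhibitory factor, did not separate library 2 from library 1. Its normalised CPM was 221 in both sgMif 1 and sgMif 2, 279 in shMif 1 and 221 in shMif 2, and 170 in shSCR 1 and 373 in shSCR 2. The sgSCR libraries held 380 and 457. The library labelled shSCR 1 thus had less Mif than either shMif library. The fitted log2 difference, library 2 minus library 1, was 0.22 ± 0.27 (SE, 3 pairs), and without the shSCR pair its sign turned, to -0.19. Genes of sarcoma drivers and mesenchymal identity summed to 17131.5 to 29143 CPM, and pan-leukocyte genes to 90.04 to 317 CPM. Total reads were higher in library 2 of the 3 pairs (36676645 to 51819308) than in library 1 (19042235 to 38542409), and lower in sgSCR 2 (19677400) than in sgSCR 1 (37573433). Precision at low levels is therefore not equal between the classes, and depth runs the other way in the sgSCR pair. The library shSCR 1 stood apart: its median difference between transcript length and effective length, over transcripts longer than 3000 bases, was 251.0 bases against 386 to 460 in the other 7. In shSCR 1, 17.7% of those transcripts lay at exactly that median, against 0.0572 to 0.110% in the others, so its value may be a preset of the quantifier and not a measurement. The sources used here do not say which, and this bears on the shSCR pair and on shMif against shSCR. It also held 5.41% of its reads on retained-intron transcripts against 3.9 to 4.84% elsewhere, and 91.5 CPM of replication-dependent histone reads against 241 to 319 CPM.

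Olfactory receptors are G protein-coupled receptors that detect odorants in the nose, and each sensory neuron is known for expressing 1 of them from a very large family. Vomeronasal receptors do the same for pheromones in the vomeronasal organ. Mouse transcripts also contain many pieces of dispersed repeats, sequences copied to many places in the genome, which lie mostly in introns and untranslated regions. A read from such a piece can match transcripts of many genes, and a quantifier shares it among them.

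The sequences below are from genes that held a short word also found in transcripts of many other genes, and the word was not the same in all of them. Glrb, Myh8 and Ctcfl were among the named genes with the lowest differences. The olfactory receptors were chosen for their high mean, and Pecam1 and Uty came from the gene lists. Npffr1, S100a9, Lipe, Pou1f1, Ebf1 and Fgf9, also among the lowest named genes, held no such word and are not shown. Short words were called shared when a stretch of 25 bases occurred in transcripts of at least 20 genes on at least 10 chromosomes, which gave 12207 words of the GENCODE M21 transcripts, defined without any read count. For each gene the most-read transcript is shown at the word that the largest number of genes hold, 5′ to 3′ on the transcript strand, with the shared word in capitals.
Olfr1031: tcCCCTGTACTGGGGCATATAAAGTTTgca
Olfr769: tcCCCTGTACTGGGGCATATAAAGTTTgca
Glrb: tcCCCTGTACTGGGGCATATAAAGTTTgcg
Olfr344: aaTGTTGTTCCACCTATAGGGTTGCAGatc
Myh8: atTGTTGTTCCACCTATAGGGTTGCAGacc
Ctcfl: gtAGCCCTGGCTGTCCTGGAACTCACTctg
Pecam1: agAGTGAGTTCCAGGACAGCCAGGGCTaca
Uty: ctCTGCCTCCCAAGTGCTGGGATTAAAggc

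These sequences come from the GENCODE M21 transcripts and lie, on GRCm38 (mm10), at chr2:85993607-85993636 on the plus strand in the 3′ UTR of Olfr1031, chr10:129109864-129109893 on the minus strand in the 3′ UTR of Olfr769, and chr3:80856862-80856891 on the minus strand in a noncoding, retained-intron transcript of Glrb. Those of Olfr344 and Myh8 lie at chr2:36574217-36574246 (plus, 3′ UTR) and chr11:67290570-67290599 (plus, retained-intron transcript). Those of Ctcfl, Pecam1 and Uty lie at chr2:173094239-173094268 (minus, 3′ UTR), chr11:106662997-106663026 (minus, retained-intron transcript) and chrY:1135783-1135812 (minus, retained-intron transcript). The word of Pecam1 is the reverse complement of that of Ctcfl. Olfr365 and Olfr393, the other two of the 5 olfactory receptor genes with the highest mean CPM, held the word of Olfr1031, and Gjc3 and Vmn2r23 held that of Ctcfl. On either strand, the word of Olfr1031 occurred in 181 of 115898 transcripts (0.156%), that of Olfr344 in 151 (0.130%), that of Uty in 859 (0.741%) and that of Ctcfl in 1152 (0.994%). No repeat annotation was used, so the words are not assigned to a repeat family, and a match is a description of letters only.

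Summed olfactory receptor reads, the value that chose the libraries, were 1330 CPM in sgMif 1 and 380 in sgMif 2. They were 2362 CPM in shMif 1 and 553 in shMif 2, and 1514 CPM in shSCR 1 and 523 in shSCR 2. The libraries nearest to the limit of 1000 CPM were thus shMif 2 inside it and sgMif 1 outside it, with a wide gap between them. Library 1 held 3.50, 4.27 and 2.90 times the level of library 2 in the sgMif, shMif and shSCR pairs. The sgSCR libraries held 2544 and 1418 CPM, a ratio of 1.79 in the same direction.

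**Figure D1:**
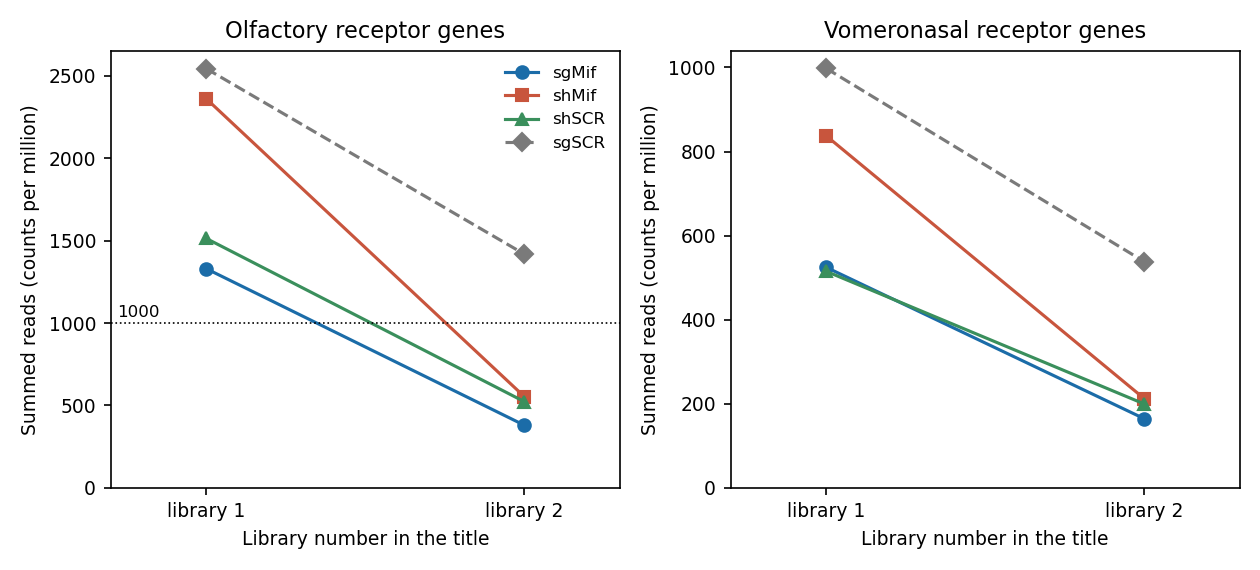
Summed reads of olfactory receptor genes (left) and vomeronasal receptor genes (right) in CPM, by library number, with 1 line for each group and a dashed line for sgSCR. The dotted line marks 1000 CPM. Library 2 is lower in every group, and both sgSCR libraries stay above 1000 CPM for olfactory receptors.

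Vomeronasal receptors were also lower in library 2 of every group. The rule did not use them by name, but their reads, like those of olfactory receptors, lay mostly on transcripts with shared words. Their summed reads were 525 and 164 CPM in sgMif 1 and 2, 838 and 212 CPM in shMif 1 and 2, and 515 and 199 CPM in shSCR 1 and 2. The sgSCR libraries held 998 and 538 CPM. The 3 libraries numbered 2 were the 3 lowest of 8. The log2 ratio over the 3 pairs was -1.68 ± 0.31 (SD, n = 3) for vomeronasal and -1.81 ± 0.28 (SD, n = 3) for olfactory receptors.

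Among other families that most tissues keep silent, several were nearly absent from all 8 libraries. Trace amine and taste receptors, which detect amines and tastants, summed to at most 1.09 CPM. Defensins, which are antimicrobial peptides, summed to at most 1.12 CPM, and keratin-associated proteins of the hair shaft to at most 0.400 CPM. Major urinary proteins summed to at most 0.596 CPM. The 1 of them tested had no shared word and was not called, with a log2 difference of -2.65 and -2.80 in the sgSCR pair. The prolactin family, hormones of the pituitary and placenta, was not nearly absent. It summed to 48.3 and 7.77 CPM in sgMif 1 and 2, 23.8 and 15.4 in shMif 1 and 2, and 17.1 and 16.2 in shSCR 1 and 2. In sgSCR 1 and 2 the sums were 118 and 43.7 CPM, and 0 of its 3 tested genes were called. Per kilobase of annotated transcript, olfactory receptors held 0.0985 to 0.660 CPM and vomeronasal receptors 0.0947 to 0.575 CPM, while trace amine and taste receptors held 0.00319 to 0.0168 CPM and the prolactin family 0.279 to 4.24 CPM. The families also differed in sequence. Transcripts with at least 100 bases of shared words held 79.7 to 82.7% of olfactory receptor reads and 85.3 to 88.2% of vomeronasal receptor reads. For trace amine and taste receptors, defensins and keratin-associated proteins that share was 0%, and over all transcripts it was 4.16 to 5.64%.

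The olfactory receptor reads were spread unevenly over the family. Between 398 and 525 of 1406 genes had a read in a library, and the 10 highest held 34.8 to 41.6% of the family's reads. Of the 1406 genes, 269 passed the filter on low counts and 653 had no read in any library. A gene could pass the filter through library 1 alone, so their counts describe the division and support nothing. Among them 62 passed the threshold (edgeR's quasi-likelihood fit, Benjamini-Hochberg adjusted p of 0.05), all 62 lower in library 2, against 1.81% of all 15625 genes tested that were lower. The median log2 difference of the 269 was -1.80, against 0.01 over all genes tested, and their median in the sgSCR pair was -0.74. In the vomeronasal family 26 of 136 tested genes were lower and 0 higher.

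Olfr1031, on chr2:85990304-85993704, was the highest of the family, with a normalised CPM of 123 in sgMif 1 and 21.7 in sgMif 2, 262 in shMif 1 and 46.9 in shMif 2, 217 in shSCR 1 and 57.6 in shSCR 2. The sgSCR libraries held 222 and 134. Every library 1 and both sgSCR libraries lay above every library 2, and the fitted log2 difference was -2.34 ± 0.16 (SE, 3 pairs). Olfr769, on chr10:129108952-129117861, fell from 67.6 to 5.48 in the sgMif pair, from 156 to 21.9 in the shMif pair and from 68.2 to 15.4 in the shSCR pair. It held 151 and 79.9 in the sgSCR libraries, and its log2 difference was -2.90 ± 0.28. Olfr365, Olfr344 and Olfr393 had log2 differences of -2.47, -2.24 and -2.44. All 5 genes had every read on transcripts with shared words, and all 5 were lower in sgSCR 2 than in sgSCR 1, by 0.72 to 1.01 on the log2 scale.

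Across all genes, 283 were lower in library 2 past the threshold (1.81% of 15625 tested) and 2 were higher (0.0128%), which makes 1.82% in either direction. All 283 were counted as lower in each of the 3 pairs, as were 2532 of all genes tested (16.2%). That count includes Gm14287 and Gm14308, which had 0 CPM in both shSCR libraries and so no fall in that pair. It can include other genes with 0 CPM in both libraries of a pair. Their median log2 difference was -2.18, with medians of -2.22, -2.29 and -1.76 in the sgMif, shMif and shSCR pairs. Besides the 62 olfactory and 26 vomeronasal receptors, they included 26 pseudogenes and 22 predicted genes or clones. For 267 of the 283, every library 1 lay above every library 2, which held for 8.61% of all genes tested. The calls rest on the pairing of libraries and on the sgMif pair: without the sgMif pair 0 genes were called, with 1179 at an unadjusted p under 0.05, and with the group left out of the model 0 were called, with 1247 at an unadjusted p under 0.05. Of the 283 genes, 281 were still tested without the sgMif pair and all 281 kept a negative difference, such as -3.77 for Npffr1, -3.18 for S100a9 and -2.99 for Ebf1, in a fit with fewer libraries to estimate the spread. Without the shMif pair 160 genes were lower and 17 higher, and without the shSCR pair, which holds the library that stood apart, 315 were lower and 35 higher.

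The sgSCR libraries, which were not fitted, gave 1 difference, sgSCR 2 against sgSCR 1, that the calls did not use. Of the 283 genes, 257 (90.8%) were lower in sgSCR 2 than in sgSCR 1, where 50.7% of all genes tested were. The median of the 283 in that pair was -0.87 on the log2 scale, against -0.01 for all genes tested. These genes are not independent of each other, since 230 of them held a shared word and genes that share a word can share reads. Lower in sgSCR 2 were 222 of the 230, and 35 of the 53 without a shared word. Both sgSCR libraries lay above all 3 libraries numbered 2 for 268 of the 283 (94.7%), and for 19.6% of all genes tested. That count uses the low values in library 2 that chose the 283 genes, so nothing is read from it. The library sgSCR 2 was the shallower of its pair. Both also lie over 1000 CPM of olfactory receptor reads, so the rule used their level of that family.

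Shared words, defined without read counts but after seeing the data, were present in most of the genes that were lower. Transcripts with at least 100 bases of them held 79.7 to 82.7% of the olfactory receptor reads that divided the libraries. Genes that share a word can share reads, and a gene could pass the filter through library 1 alone. The counts by shared word are therefore not independent of the division and only describe it. A transcript with a shared word was present in 230 of the 283, and in 5167 of all 15625 genes tested. Among genes with no shared word 53 of 10458 were lower (0.507%). With 1 to 99 bases of shared words 29 of 2497 were lower (1.16%), with at least 100 but under 300 bases 140 of 2092 (6.69%), and with 300 bases or more 61 of 578 (10.6%). Most genes with shared words were not past the threshold. The median log2 differences of the class with 300 bases or more were -0.08, -0.12 and -0.34 in the sgMif, shMif and shSCR pairs and -0.26 in the sgSCR pair. Genes with no shared word had medians of 0.03, 0.07, 0.07 and 0.02 in the same order.

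Genes of low level were also divided by the share of their reads on transcripts with shared words, again as a description only. Of genes with a mean log2 CPM from 1 to 3 and no read on transcripts with shared words, 22 of 1416 were lower (1.55%). Where over 90% of the reads fell on such transcripts, 104 of 399 were lower (26.1%). The median log2 differences of these 399 were -0.48, -0.69 and -0.67 in the 3 pairs, and -0.52 in the sgSCR pair.

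The share of genes that were lower varied with the word, where 1.81% of all genes tested were lower. Genes with the word of Olfr1031 were lower in 40 of 114 tested, with a median log2 difference of -1.07, and genes with the word of Olfr344 in 43 of 104, with a median of -1.36. Genes with the word of Ctcfl were lower in 63 of 888, with a median of -0.09, and genes with the word of Uty in 35 of 644, with a median of -0.08. The words were chosen from transcripts of members, and genes that hold them can share reads with the family that divided the libraries. These counts are therefore a description. Without the genes whose sequence was examined, 58 of the 173 genes with either word of the olfactory receptors were lower (33.5%), and without any olfactory or vomeronasal receptor gene 22 of 93 were (23.7%). In the sgSCR pair, 152 of all 181 genes with either word were lower in sgSCR 2 (84.0%), against 50.7% of all genes tested. The median of the 181 in that pair was -0.62, against -0.01 for all genes tested. Summed olfactory receptor reads in CPM were lower in sgSCR 2 too. Of olfactory receptor genes with either word 34 of 61 were lower (55.7%), and of those with neither 28 of 208 were (13.5%). Their medians in the fit were nearer to each other, -1.89 and -1.78, so these words mark only some of the family.

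**Figure D2:**
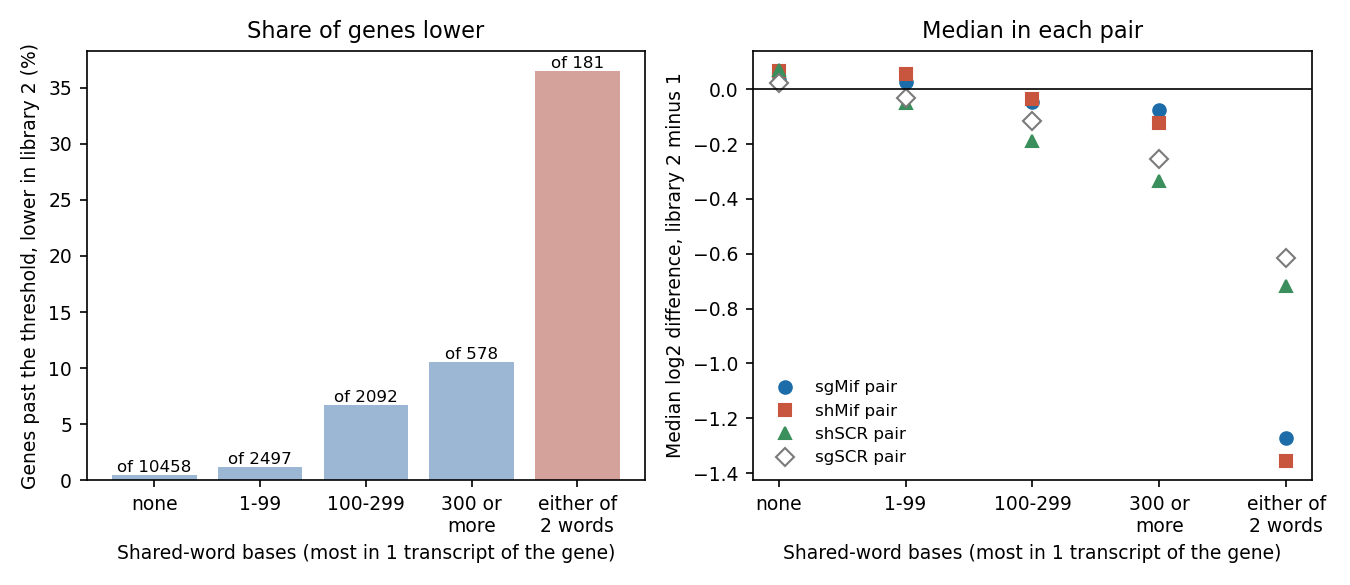
Left, percent of tested genes past the threshold and lower in library 2, by bases of shared words in the gene and, at the right, for the 181 genes with either word of the olfactory receptors, with the number tested above each bar. Right, the median log2 difference of the same genes in each pair, with sgSCR as open diamonds. The share rises from 0.507% to 10.6% over the 4 classes and is 36.5% for the last group, whose medians lie below 0 in all 4 pairs.

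Several named genes were read almost wholly through a transcript that keeps an intron or carries the shared word. Glrb encodes the beta subunit of the glycine receptor, and 97.9% of its reads lay on 1 retained-intron transcript of 1620 bases and 1 exon. Its normalised CPM was 21.0 and 1.51 in sgMif 1 and 2, 46.2 and 6.09 in shMif 1 and 2, and 28.1 and 5.596 in shSCR 1 and 2, with 38.1 and 22.7 in sgSCR 1 and 2. The log2 difference was -3.03 ± 0.28 (SE, 3 pairs). When only transcripts without shared words were counted, an alternative chosen after seeing the data, the difference of Glrb was 0.02. Myh8, the perinatal heavy chain of skeletal muscle myosin, had a log2 difference of -2.56, with 98.9% of its reads on a retained-intron transcript.

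Pecam1 and Uty show the same on genes often used as markers. Pecam1 encodes CD31 of endothelial cells, and 92.2% of its reads in the 6 libraries lay on 1 single-exon retained-intron transcript. Normalised CPM of Pecam1 was 112 and 24.9 in sgMif 1 and 2, 155 and 36.9 in shMif 1 and 2, and 195 and 20.7 in shSCR 1 and 2. The sgSCR libraries held 248 and 262, so the sgSCR pair did not follow (0.08 on the log2 scale). Uty, a gene of the Y chromosome that encodes a histone demethylase homologue, held 87.5 and 10.9 in sgMif 1 and 2, 167 and 29.5 in shMif 1 and 2, and 124 and 37.7 in shSCR 1 and 2. Of its reads in the 6 libraries, 99.95% lay on 1 single-exon retained-intron transcript. The other Y-linked genes examined were near 0: Ddx3y and Eif2s3y, which encode a helicase and a translation factor subunit, each had at most 0.184 CPM, and Kdm5d, a histone demethylase, had 1.09 to 3.78 CPM.

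Ctcfl, the testis paralogue of the chromatin factor CTCF, had a log2 difference of -2.80 ± 0.21. It held 50.3 and 5.01 normalised CPM in sgMif 1 and 2, 100 and 16.5 in shMif 1 and 2, and 78.8 and 15.3 in shSCR 1 and 2, with 103 and 49.4 in sgSCR 1 and 2. Gjc3, a connexin of myelinating glia, and Vmn2r23, a vomeronasal receptor, had differences of -2.71 and -2.63. Qprt, which makes nicotinic acid mononucleotide in NAD synthesis, had a difference of -3.00 ± 0.29. It was also the named gene with the largest fall in the sgSCR pair (13.2 to 2.31 normalised CPM, -2.49 on the log2 scale). These 4 genes had all their reads on transcripts with shared words.

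**Figure D3:**
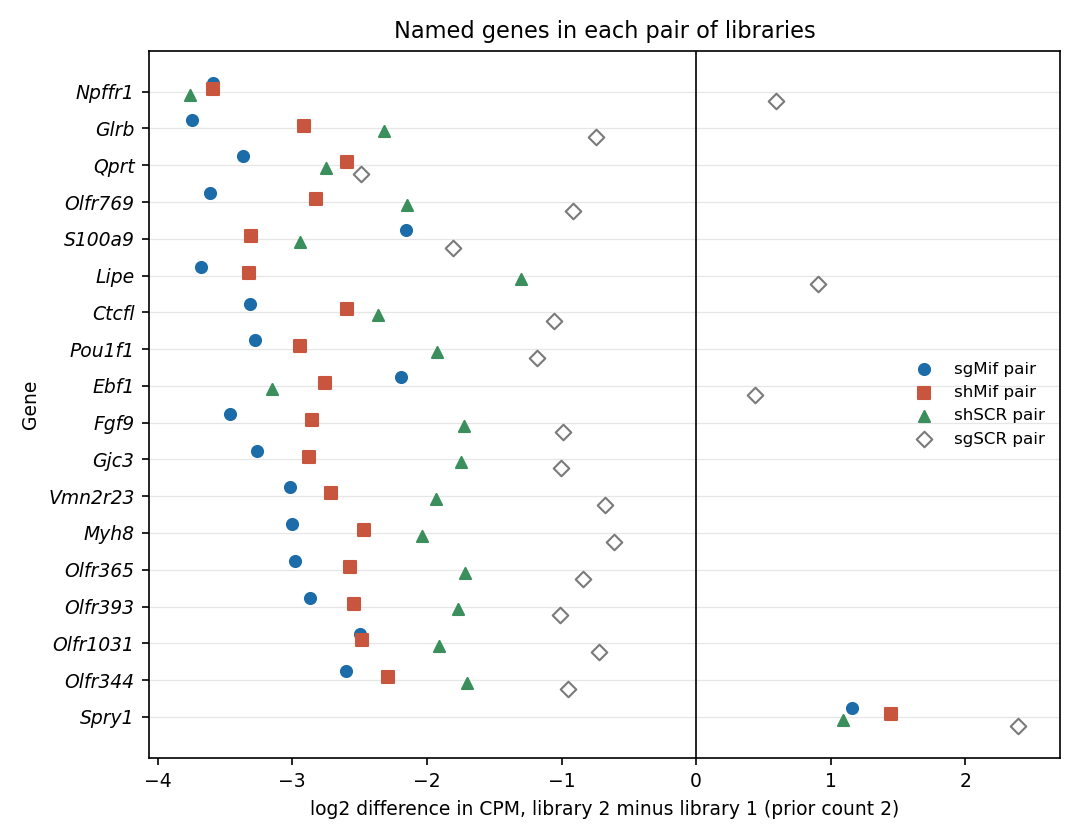
Log2 difference in normalised CPM, library 2 minus library 1, for the 12 lowest named genes, the 1 named gene that was higher and the 5 olfactory receptor genes of highest mean, with 1 symbol for each pair and open diamonds for sgSCR. All but Spry1 lie left of 0 in the sgMif, shMif and shSCR pairs, and Npffr1, Lipe and Ebf1 lie right of 0 in the sgSCR pair.

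The 53 genes without a shared word behaved less uniformly in the sgSCR pair. Of them 35 were lower in sgSCR 2, against 222 of the 230 with a shared word. Among the 53, 20 were predicted genes, pseudogenes or olfactory receptors, and 33 were other genes, of which 22 were lower in sgSCR 2. The genes given from these 33 were chosen after their values were seen, unless the rule for named genes also gave them. They are of several kinds: some are known from neutrophils, macrophages or the acute-phase response, and others, such as Shank1, Myoz3, Trpm3 and Csmd2, are not.

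S100a9 encodes a calcium-binding protein abundant in neutrophils. Normalised CPM of S100a9 was 6.21 and 1.35 in sgMif 1 and 2, 13.7 and 1.33 in shMif 1 and 2, and 21.1 and 2.69 in shSCR 1 and 2, with 5.93 and 1.66 in sgSCR 1 and 2. Every library 1 lay above every library 2, and the log2 difference was -2.89 ± 0.29 (SE, 3 pairs). Acod1, which makes itaconate in activated macrophages, had a difference of -2.28. It held 12.5, 23.3 and 17.8 in library 1 and 3.24, 3.15 and 4.79 in library 2 of the sgMif, shMif and shSCR groups, and 10.8 and 3.71 in sgSCR 1 and 2. Hdc, which makes histamine, Clec4e, a receptor of myeloid cells for mycobacterial and dead-cell ligands, and Slpi, a protease inhibitor of neutrophils and epithelia, had differences of -2.18, -1.93 and -2.18. Nlrp3, an inflammasome sensor, Hcar2, a receptor for nicotinic acid and butyrate, Slfn4, a schlafen protein of myeloid cells, and the chemokines Ccl6 and Cxcl3 had differences of -1.27, -1.69, -1.15, -0.87 and -1.22. All 5 were lower in sgSCR 2 than in sgSCR 1, by between 0.18 (Hcar2) and 2.34 (Cxcl3) on the log2 scale.

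Markers of neutrophils, a list that includes S100a9, were at low levels. The 12 listed markers summed to 21.9 and 5.33 CPM in sgMif 1 and 2, 42.6 and 9.49 in shMif 1 and 2, and 40.8 and 11.4 in shSCR 1 and 2, with 22.7 and 9.55 in sgSCR 1 and 2. Of the 7 tested, S100a9 and Csf3r, the receptor for granulocyte colony-stimulating factor, were lower past the threshold, against 1.81% of all genes tested. The other 5 did not pass. Csf3r, unlike S100a9, had a shared word. Of the 7, 5 were lower in all 3 pairs, against 16.2% of all genes tested. The fitted median log2 difference was -1.87, with medians of -1.39, -0.84 and -1.24 in the sgMif, shMif and shSCR pairs and -1.08 in the sgSCR pair. It was -1.10 with all 8 libraries in the fit, -1.46 with DESeq2 and -1.42 without the sgMif pair. Ly6g and Camp, which mark mature neutrophils and their granules, had 0 reads in all 8 libraries, and Elane, Ltf and Ngp had at most 0.578 CPM. In bulk libraries, fewer cells of a type and less RNA per cell cannot be told apart, and the part of these cells in the result was not tested.

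Pan-leukocyte and macrophage genes overlapped between the classes. The 10 pan-leukocyte genes had a median log2 difference of -0.47, with 0 called and 6 lower in all 3 pairs (all genes tested, 16.2%). Their summed level was 118 and 90.04 CPM in sgMif 1 and 2, 317 and 199 in shMif 1 and 2, and 289 and 242 in shSCR 1 and 2, so shMif 2 and shSCR 2 lay above sgMif 1. The 18 macrophage markers summed to 192 and 180 CPM in the sgMif pair, 578 and 308 in the shMif pair and 333 and 350 in the shSCR pair, with 0 called. Among 27 tested myeloid-recruiting ligands, Cxcl3 alone was lower past the threshold, against 1.81% of all genes tested, and the median was -0.43. Erythroid and T-cell markers had medians of -3.05 and -1.84 in the shMif pair and of 0.03 and 0.56 in the sgMif pair.

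Another set of genes without shared words went against the sgSCR pair. Npffr1, a receptor for neuropeptide FF on chr10:61595492-61628565, had the lowest log2 difference of all named genes, -3.73 ± 0.18 (SE, 3 pairs). Its normalised CPM was 40.1 and 3.28 in sgMif 1 and 2, 29.97 and 2.44 in shMif 1 and 2, and 9.15 and 0.622 in shSCR 1 and 2. In the sgSCR libraries it was 38.9 and 58.6, higher in sgSCR 2. Lipe, which encodes hormone-sensitive lipase, held 154 and 11.9 in sgMif 1 and 2, 106 and 10.5 in shMif 1 and 2, 11.5 and 4.61 in shSCR 1 and 2. In sgSCR 1 and 2 it was at 120 and 224. Its classes overlapped, since shSCR 1 lay below sgMif 2, and its log2 difference was -2.87 ± 0.46. With all 8 libraries in the fit, Npffr1, Lipe and Ebf1 were no longer past the threshold, with log2 differences of -2.69, -1.94 and -1.98.

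Ebf1, a transcription factor of early B cells and fat-cell precursors, held 56.0 and 12.2 in sgMif 1 and 2, 61.6 and 9.07 in shMif 1 and 2, 50.3 and 5.62 in shSCR 1 and 2. In sgSCR 1 and 2 it was at 74.1 and 100. Every library 1 and both sgSCR libraries lay above every library 2. Hp, which encodes haptoglobin, Cp, ceruloplasmin, and C3, complement component 3, had log2 differences of -2.48, -0.84 and -0.88, and were higher in sgSCR 2 by 1.22, 0.49 and 0.43. Among markers of fat cells, Adipoq had at most 0.0439 CPM and Plin1 0.604 to 3.82 CPM. The 11 listed markers, of which Lipe is one, summed to 189 and 38.9 CPM in sgMif 1 and 2, 149.6 and 40.2 in shMif 1 and 2, and 38.6 and 36.6 in shSCR 1 and 2. In sgSCR 1 and 2 the sums were 168 and 273.5 CPM. Of the 5 tested, Lipe alone was called lower, against 1.81% of all genes tested. The median log2 difference of the 5 was -0.85. The part of such cells in the result was not tested.

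**Figure D4:**
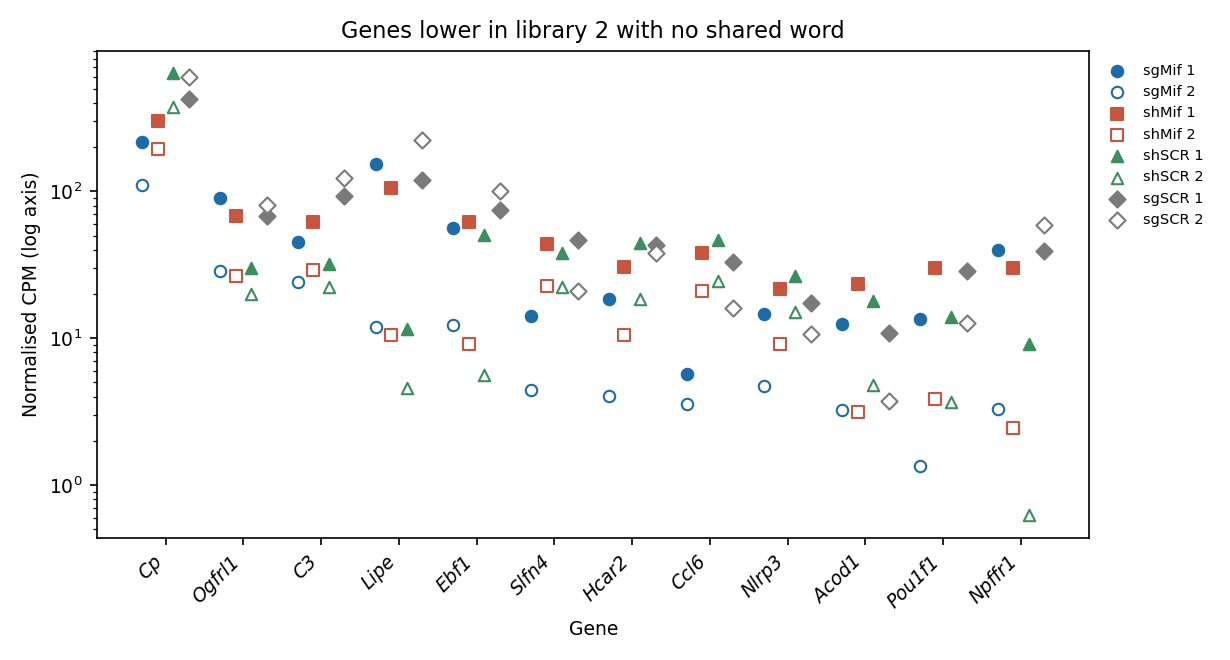
Normalised CPM on a log axis of the 12 genes of highest mean among those lower in library 2 that have no shared word and are not predicted genes, pseudogenes or olfactory receptors. Filled symbols are library 1 and open symbols library 2. In the sgMif, shMif and shSCR groups each open symbol lies below its filled one, while for Cp, Ogfrl1, C3, Lipe, Ebf1 and Npffr1 the open sgSCR diamond lies above the filled one.

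Other named genes had no shared word and were of low level. Pou1f1, the pituitary transcription factor, had a log2 difference of -2.77 ± 0.29, and Fgf9, a fibroblast growth factor, one of -2.74 ± 0.36. Pou1f1 held 13.6, 30.1 and 14.0 normalised CPM in library 1 of the sgMif, shMif and shSCR groups and 1.35, 3.85 and 3.65 in library 2. Both genes were lower in sgSCR 2 than in sgSCR 1, by 1.18 and 0.99 on the log2 scale.

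Only 2 genes were higher in library 2 past the threshold. Spry1, a feedback inhibitor of receptor tyrosine kinase signalling on chr3:37639947-37644598, held 23.2 and 51.7 normalised CPM in sgMif 1 and 2, 12.4 and 33.7 in shMif 1 and 2, and 7.57 and 16.2 in shSCR 1 and 2. Its log2 difference was 1.19 ± 0.14 (SE, 3 pairs), and the classes overlapped, since sgMif 1 lay above shSCR 2. The sgSCR libraries, which were not fitted, held 16.5 and 87.2, the largest rise of the 4 pairs (2.39 on the log2 scale). The other was Gm2436, an unprocessed pseudogene with 6.79 normalised CPM in sgMif 2, 3.61 in shSCR 2 and 0 in the other 6 libraries, shMif 2 included.

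Of the 40 lists examined, of tumour programs and of markers of immune, vascular and other host cells, 38 had a tested member, and in 29 of these 38 no member was called. The medians were 0.21 for sterol synthesis, 0.09 for mitosis and G2/M, 0.01 for the hypoxia response, 0.25 for the type I interferon response, 0.28 for MHC class I and 0.09 for immediate-early genes, with 0 called in each, against 0.01 over all genes tested. Of 351 zinc finger genes tested, 7 were lower, against 1.81% of all genes tested, and 0 higher, with a median of 0.04. Cytosolic ribosomal protein genes had a median of 0.03 and the 39 collagen genes tested one of 0.11, with 1 called, Col26a1. Slc7a11 and Tyms, both with shared words, were called in their lists. Slc7a11, the cystine and glutamate exchanger of the integrated stress response, held 25.5 and 12.7 normalised CPM in sgMif 1 and 2, 52.5 and 19.6 in shMif 1 and 2, and 29.01 and 14.4 in shSCR 1 and 2. Its log2 difference was -1.19 ± 0.15, it did not follow in the sgSCR pair (52.0 and 54.4), and it was the 1 called of 19 tested in its list, against 1.81% of all genes tested. Tyms, which makes thymidylate for DNA synthesis, was the 1 called of 25 G1/S genes, also against 1.81%, with a log2 difference of -0.91 and 0.49 lower in sgSCR 2 on the log2 scale.

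Some lists followed 1 pair or 1 library. The median of replication-dependent histone genes was 1.52 in the shSCR pair, -0.44 in the sgMif pair and 0.04 in the shMif pair, and shSCR 1 is the library that stood apart. Their fitted median was 0.18, and -0.22 without the shSCR pair. Mitochondrially encoded genes likewise had a median of 0.55 in the shSCR pair and 0.11 in each of the other two. Endothelial markers had a median of -2.21 in the sgMif pair and of 0.28 and 0.61 in the shMif and shSCR pairs. Pecam1 was the 1 called lower of 13 tested, against 1.81% of all genes tested.

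**Figure D5:**
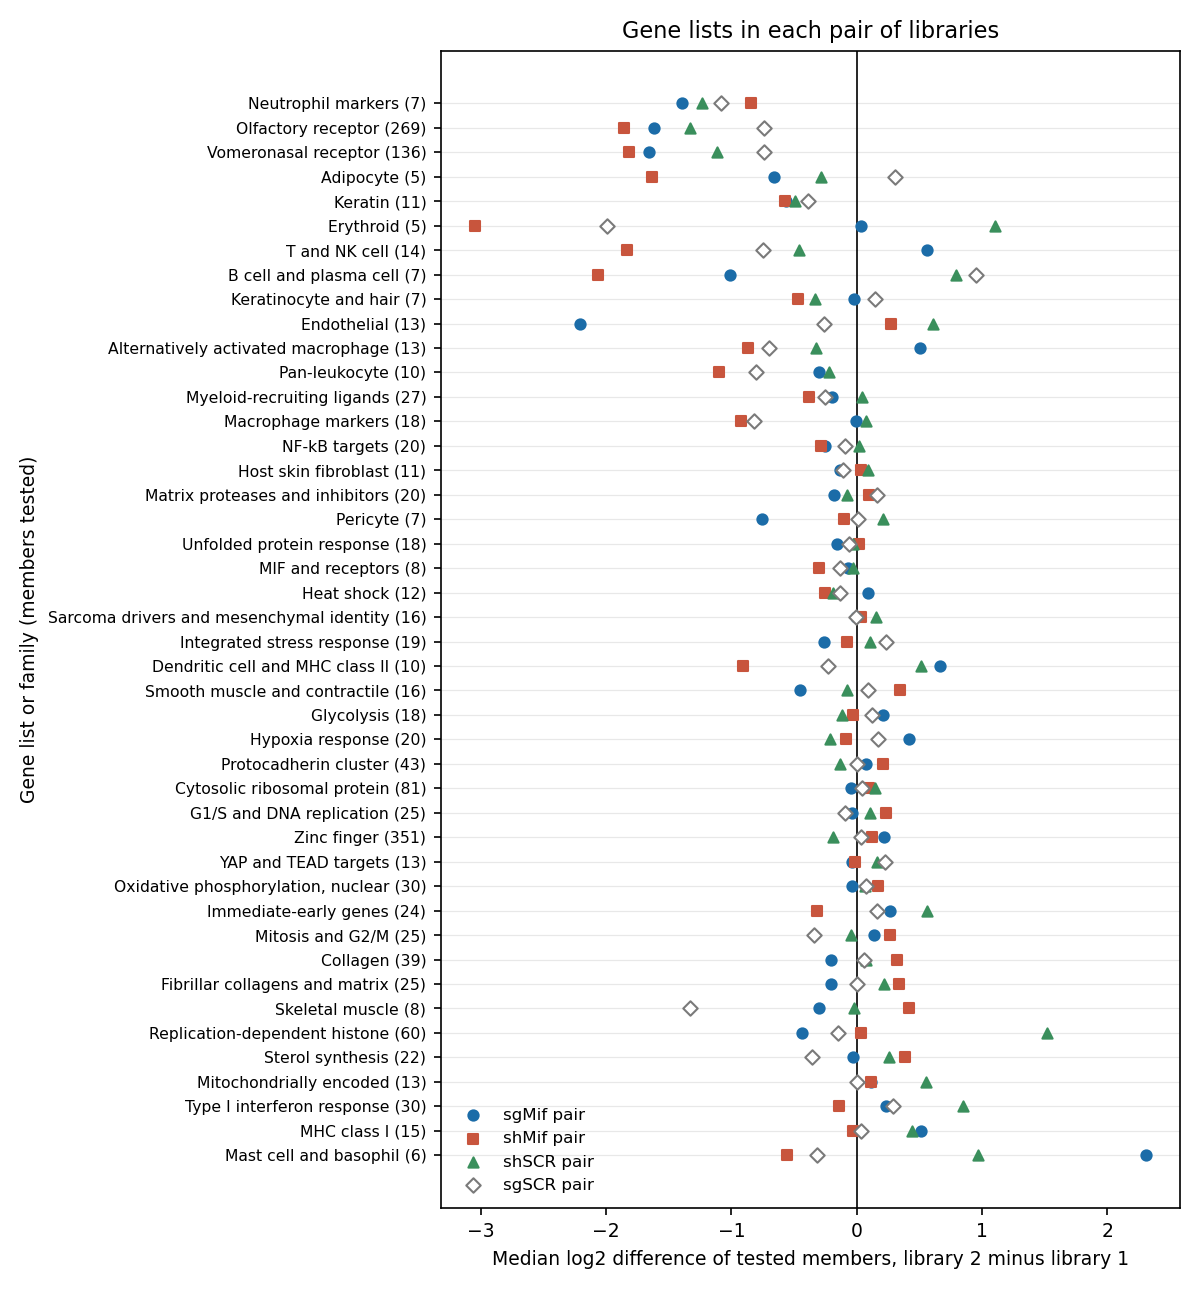
Median log2 difference, library 2 minus library 1, of the tested members of each list or family with at least 5 of them, with 1 symbol for each pair, open diamonds for sgSCR and the number tested in brackets. Neutrophil markers and both receptor families lie below 0 in all 4 pairs, as do keratin and pan-leukocyte genes. The list of Mif and its receptors lies below 0 too, but nearer to it, at -0.30 to -0.03. Pan-leukocyte genes lie at -1.10 in the shMif pair and -0.80 in the sgSCR pair. Most tumour programs lie near 0 or on both sides of it.

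Pairs were compared with each other gene by gene. Over all 15625 genes tested, the log2 differences of 2 pairs correlated across genes with Pearson's r of 0.40 (sgMif and shMif), 0.24 (sgMif and shSCR) and 0.27 (shMif and shSCR). Over the 5167 genes with a shared word the same values were 0.63, 0.47 and 0.54, and over the 10458 without one 0.28, 0.14 and 0.15. With the sgSCR pair, r was 0.17 to 0.18 over all genes tested. Genes are not independent replicates, and genes that share a word can share reads, so these values are descriptions.

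The labelled comparison of shMif with shSCR, fitted to the same 6 libraries without the library number, called 4 genes (0.0256% of 15625), with 1398 at an unadjusted p under 0.05 (8.95%). All 4 were higher in shMif: Itgb4, an integrin of hemidesmosomes, Ccn5, a matricellular protein, Vgll3, a cofactor of TEAD factors, and Mid1, a ubiquitin ligase. With the library number as a term 5 genes were higher and 1 lower, 3 of them called in both fits. None of the 283 genes lower in library 2 was called between shMif and shSCR, and 1 had an unadjusted p under 0.05. Few calls were set in advance by the choice of these genes. Without the library number in the fit, their gap between libraries 1 and 2 counts as spread within groups. Whether they differ by the Mif label is therefore not read from these counts. The median log2 difference of the 283, shMif minus shSCR, was 0.35. The count depended on single libraries, from 0 genes without shSCR 1 or any of 4 others to 340 higher and 153 lower without shSCR 2.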

How the data were processed

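Bulk RNA was sequenced from 8 libraries, 2 in each of 4 groups taken from the sample titles. Per the submitters' processing notes, Trimmomatic and Salmon were used with build mm10, and no version or index is named. The authors' deposited tables hold an estimated count, a TPM value and an effective length for each of 116546 transcripts, per the file headers. Of these, 115977 matched GENCODE M21 without version, and the rest held 0.101 to 0.205% of reads. Estimated counts were summed over 35498 genes and rounded. Genes passing filterByExpr (minimum count 10, total 15) were fitted with edgeR 4.0.16 in R 4.3.3 after TMM scaling, with terms for group and library number and 2 residual degrees of freedom. Summed family levels are plain CPM, gene levels are TMM-normalised CPM, and log2 differences of single pairs used a prior count of 2. Totals of 19042235 to 51819308 reads set the precision. DESeq2 1.42.0 and other settings were alternatives. The fit was also run on simulated counts, drawn for each gene on its own and without differences between groups. Genes that share reads were not simulated, so nothing is read from that run about these calls. Unstranded counting could not be told from stranded, so overlapping, antisense and near-identical genes are uncertain.

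The members and the gene lists were chosen with earlier results of these data known, and shared words, low-complexity ones removed (under 10 distinct triplets of 23), were defined after seeing the data. The genes named are Mif, the 12 lowest and up to 12 highest past the threshold with mean log2 CPM of at least 1 and the same sign in 3 pairs, the 5 highest olfactory receptors and up to 6 per list. Predicted genes, pseudogenes and olfactory receptors were otherwise counted only. Lists of nuclear long noncoding RNA and of structural small RNA had 0 members in the tables.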

Additional observations from a re-analysis of the deposited data

Results flagged for a closer look

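In 3 named genes the sgSCR pair moved against the 3 other pairs. Their log2 difference, library 2 minus library 1, was positive in the sgSCR pair and negative in the sgMif, shMif and shSCR pairs: 0.59 for Npffr1, 0.90 for Lipe and 0.43 for Ebf1. The sgSCR group has 1 pair, so the difference between it and the other pairs was not tested.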

How the results depend on the processing

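The library numbers are not said to mark a shared mouse, day or batch, and the pairing of libraries within a group decides the calls: with no replicate block the count fell from 283 lower and 2 higher to 0 and 0, although all 283 genes kept a negative difference. Leaving out 1 pair gave 0 to 315 lower and 0 to 35 higher genes. DESeq2 gave 540 lower and 32 higher, no filter on low counts 428 and 25, counts scaled by transcript length 107 lower, protein-coding transcripts 84 and 1, and all 8 libraries 6 higher. Transcripts without shared words, chosen after seeing the data, gave 1 lower (Npffr1) and 0 higher, with 829 at an unadjusted p under 0.05. In that setting 88 of the 283 genes were still tested and 73 of them had a negative difference, and S100a9 lost its call at an unchanged -2.89, so the loss of calls is not a loss of difference alone. Mif ranged from -0.19 (without the shSCR pair) to 0.56 when 1 pair was left out, and Glrb turned to 0.017 without shared words. Of 215 alternative values for named genes, 160 stayed on their side of the threshold, 53 lost it and 2 turned sign. Log2 ratios of summed olfactory receptor reads moved by less than the spread between pairs under TMM scaling, summed TPM and protein-coding transcripts.

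For shMif against shSCR, with 4 higher and 0 lower genes, the replicate block gave 1 lower, DESeq2 107 higher and 57 lower, and no filter 382 and 159. Leaving out 1 library gave 0 to 340 higher and 0 to 153 lower, the lone library of a group being assumed to vary like the others. Depth of 19042235 reads in the shallowest library limits what can be seen of genes near 1 CPM.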
